A study of Drosophila melanogaster with 17 samples.

Results

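The response of adult fly midgut progenitors (esg+ cells, sorted on escargot-driven GFP) to scute overexpression was set against the response of such cells to overexpression of monomeric daughterless (da). The measure is a difference of changes per gene, on the log2 scale. It is the level in scute libraries relative to the controls of their batch, minus the level in da libraries relative to the controls of theirs. The comparison used 11 of the 17 libraries of the series, in 4 groups, and 9494 of the 17807 genes counted, those with enough counts in both batches for either change to be measured.

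All 4 groups carried esg-Gal4, which drives transgenes in stem cells and their undifferentiated daughters, together with UAS-GFP and the temperature-sensitive Gal4 inhibitor tub-Gal80[ts]. The scute group, with 3 libraries, also carried UAS-scute, and 3 control libraries of that batch (batch 2) had the driver and reporter alone. The da group, with 2 libraries, also carried UAS-da, and it had 3 control libraries of its own (batch 1). Flies were raised at 18 °C and shifted as adults to 29 °C for 2 days, which switches the transgenes on. Midguts were pooled, 20000 to 40000 GFP-positive cells were sorted for each library, and the RNA was amplified before sequencing.

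Daughterless is the fly's E protein, a basic helix-loop-helix (bHLH) transcription factor that binds E-box DNA as a homodimer or as a partner of other bHLH proteins. Scute is a proneural bHLH factor that binds DNA paired with Daughterless, and in the gut it is known for driving progenitors toward hormone-secreting enteroendocrine cells. Extramacrochaetae (Emc) is a helix-loop-helix protein without a DNA-binding region that sequesters both. A response that both overexpressions share is thus one seen with more of either partner.

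The 11 libraries held 34170615 to 66679229 counts, with 1 read per fragment in batch 1 and 2 in batch 2. Because scute and da were run in different batches, with reads of 50 nt for da and 150 nt for scute, an effect common to the libraries of 1 batch cancels in the difference, but batch and factor cannot be told apart in whatever remains. Unless another fit is named, adjusted p-values below come from edgeR's quasi-likelihood test in 1 fit of all 17 libraries, adjusted over the 9494 genes. A gene was called at an adjusted p under 0.05. Levels are CPM (the count as a share of the scaled library size), changes are log2 values, and errors of changes are standard errors (SE).

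Each transgene was high in its own libraries, and sc fell with da. The scute gene (sc; chromosome X, 396060 to 397497, genome BDGP6.28) was counted at 1510, 1540 and 2260 CPM in scute libraries, against 1.43, 1.43 and 1.46 CPM in their controls. In da libraries sc stood at 0.927 and 0.557 CPM, against 4.12, 3.66 and 2.65 CPM in their controls. Every da library lay below every one of its controls, and the fall in the da change was 4.79-fold (adjusted p = 4.99e-05). The da gene (chromosome 2L, 10388105 to 10393228) stood at 1000 and 1060 CPM in da libraries, against 116, 134 and 170 CPM in their controls, a 7.36-fold rise (adjusted p = 1.21e-08). Scute libraries had 76.2, 75.3 and 72.9 CPM of da, against 62.9, 63.5 and 62.9 CPM in their controls, so that the scute libraries lay slightly above all their controls. That change of 0.25 ± 0.16 was not called (adjusted p = 0.195), but it was called under a stricter filter (0.36, adjusted p = 0.0487) and with each batch fitted alone (0.23, adjusted p = 0.0478). Counts of sc and da add the transgene's transcripts to those of the fly's own gene.

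The inhibitor emc rose in both, far more with da. Its level (chromosome 3L, 749400 to 753492) was 81.1, 80.6 and 59.4 CPM in scute libraries, against 33.2, 38.6 and 49.5 CPM in their controls. Da libraries had 961 and 841 CPM of emc, against 48.7, 45.2 and 42.3 CPM in their controls. The groups did not overlap in either batch, the rises were 1.82-fold with scute and 19.8-fold with da, and the scute change was lower than the da change by 3.44 ± 0.23 log2 units (adjusted p = 4.73e-08).

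More genes were called with scute than with da, and genes called in both mostly moved the same way. The scute change rested on 3 overexpression libraries and the da change on 2, each against 3 controls. The power to call a change thus differed, and the number of calls does not measure the size of a response. In the scute change 2774 genes rose and 2702 fell, which is 29.2% and 28.5% of the genes tested. In the da change 1480 rose and 1823 fell, 15.6% and 19.2%. The da falls numbered 1176 when the second da library was left out. The difference itself was called in 4025 genes (42.4%), higher with scute in 2070 (21.8%) and lower in 1955 (20.6%). With each batch fitted alone, the da change had 1283 rises and 892 falls. Under another scaling (relative log expression) it had 1628 rises and 1445 falls, so which were more numerous depended on the processing. Of 2195 genes called in both changes, 1551 (70.7%) moved in the same direction and 644 (29.3%) in opposite directions.

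The shared rises, 707 genes or 7.45% of those tested, made up 25.5% of the genes that rose with scute and 47.8% of those that rose with da. The shared falls, 844 genes or 8.89%, made up 31.2% of the scute falls and 46.3% of the da falls. A further 419 genes (4.41%) rose with scute and fell with da, and 225 (2.37%) fell with scute and rose with da. The excess of the first kind depended on the processing. The 2 counts were 311 and 275 under another scaling (relative log expression). They were 219 and 221 under a stricter filter, and 189 and 223 with each batch fitted alone. Which genes made up each class also depended on the libraries. In each class, more genes lost their place in at least 1 fit that left out 1 library than kept it in all. Leaving out 1 library moved 2 of the class counts by over 1.5 times. Without the second da library there were 551 shared falls and 264 genes higher with scute and lower with da, and without the third scute library there were 274 of these. Across the 9494 genes the 2 changes had a Pearson correlation of 0.13 and a Spearman correlation of 0.21, given as a description because genes of the same libraries are not independent.

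**Figure D1:**
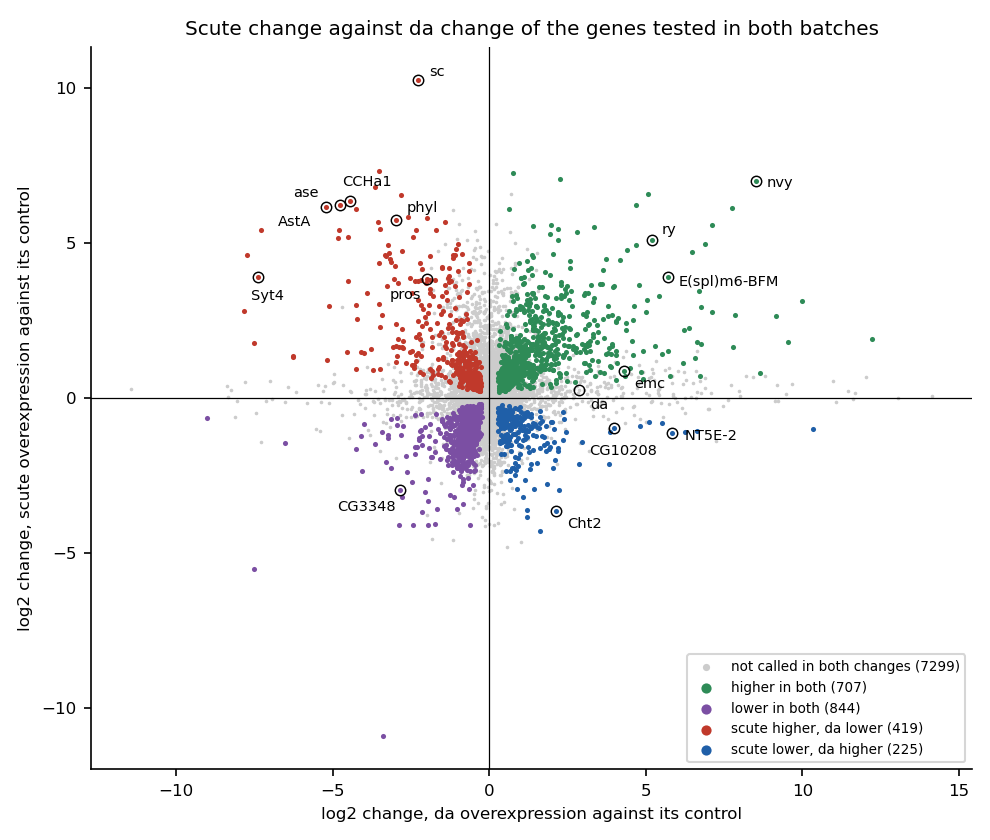
Log2 change with da overexpression (horizontal axis) against log2 change with scute overexpression (vertical axis), each relative to the controls of its batch, for the 9494 genes tested in both batches. Coloured points are the 2195 genes called in both changes, and circled genes are named in the text. The 707 shared rises fill the upper right and the 844 shared falls the lower left, while AstA, CCHa1, ase and phyl lie high on the left.

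A shared call did not always mean a like size. Among the 707 shared rises the scute change was higher than the da change in 134 genes and lower in 109, and in 464 the difference was not called. The 95% interval of the difference lay within 1 log2 unit of 0 for 265 of the 707, which is where the data limit how unlike the responses could be. For the 844 shared falls the difference was called higher in 26 and lower in 230, and the interval lay within 1 log2 unit for 553. Such intervals were not particular to shared genes. With scute alone called they were found for 400 of 1648 rises and 615 of 1633 falls. With da alone called they were found for 82 of 548 rises and 196 of 560 falls. Of the 2910 genes called in neither change 1472 had one. So had 15 of the 419 genes higher with scute and lower with da, and 2 of the 225 of the reverse kind. Median changes were 1.35 with scute and 1.26 with da over the shared rises, and -0.91 and -0.66 over the shared falls, beside 0.04 and -0.10 over all genes tested. Past 2-fold in both changes there were 663 genes, of which 349 rose in both and 106 fell in both.

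First among the shared rises by the smaller of its changes was nervy (nvy), which encodes a co-repressor of the MTG/ETO family. It stood at 63.1, 77.9 and 109 CPM in scute libraries, against 0.462, 0.808 and 0.687 CPM in their controls. In da libraries it stood at 154 and 239 CPM, against 0.474, 0.844 and 0.252 CPM in theirs. No control library of either batch reached 1 CPM, and the rises were 127-fold with scute (adjusted p = 5.1e-10) and 368-fold with da (adjusted p = 3.62e-10). The da change was the larger by 1.53 ± 0.48 log2 units (adjusted p = 0.0171), a call that was lost without the second da library (adjusted p = 0.0608). The gene lies on chromosome 2R, 24275734 to 24291084.

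Several shared rises had no called difference between the factors. Shared genes named by their smaller change were picked for no overlap between each group and its controls, so that lack of overlap is no separate result. Fasciclin 3 (Fas3), a homophilic adhesion protein, had 295, 304 and 246 CPM in scute libraries, against 11, 12.8 and 14.7 CPM in their controls. It had 320 and 349 CPM in da libraries, against 13.6, 20.1 and 21.5 CPM in their controls. All 5 overexpression libraries lay far above all 6 controls, and the changes of 4.45 and 4.19 differed by 0.27 ± 0.33 (95% interval -0.44 to 0.97). Rosy (ry), the xanthine dehydrogenase gene, stood at 43.7, 43.6 and 33.7 CPM in scute libraries, against 1.09, 1.10 and 1.37 CPM in their controls, and at 32 and 27.6 CPM in da libraries, against 0.771, 0.816 and 0.852 CPM in their controls. Its 33.7-fold and 36.6-fold rises differed by -0.12 ± 0.31 (interval -0.77 to 0.54). Liprin-gamma, of a family of synaptic scaffold proteins, rose 30.5-fold with scute and 25.6-fold with da, with a difference of 0.25 ± 0.45 (interval -0.70 to 1.20).

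CG30008 rose 27.4-fold with scute and 21.2-fold with da, CG31259 11.9-fold and 15.4-fold, and sug, which encodes a zinc-finger transcription factor, 12.7-fold and 11.7-fold. The difference was not called for any of these 3. Among the 10 shared rises named by their smaller change, 3 had a called difference, and in each the da change was the larger. They are nvy, E(spl)m6-BFM and CG10621, and CG10621 rose 10.8-fold with scute and 103-fold with da (adjusted p of the difference = 2.52e-05). CG10311, with 48.0-fold and 138-fold rises, had a difference of -1.52 ± 0.63 that was not called (adjusted p = 0.0578). It was called with relative log expression scaling (adjusted p = 0.0434), by DESeq2 (adjusted p = 0.0175), in the 11 libraries fitted alone (adjusted p = 0.0206) and without the first da library (adjusted p = 0.0168) or control library 3 of that batch (adjusted p = 0.0497), so the count of 3 depends on the fit.

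**Figure D2:**
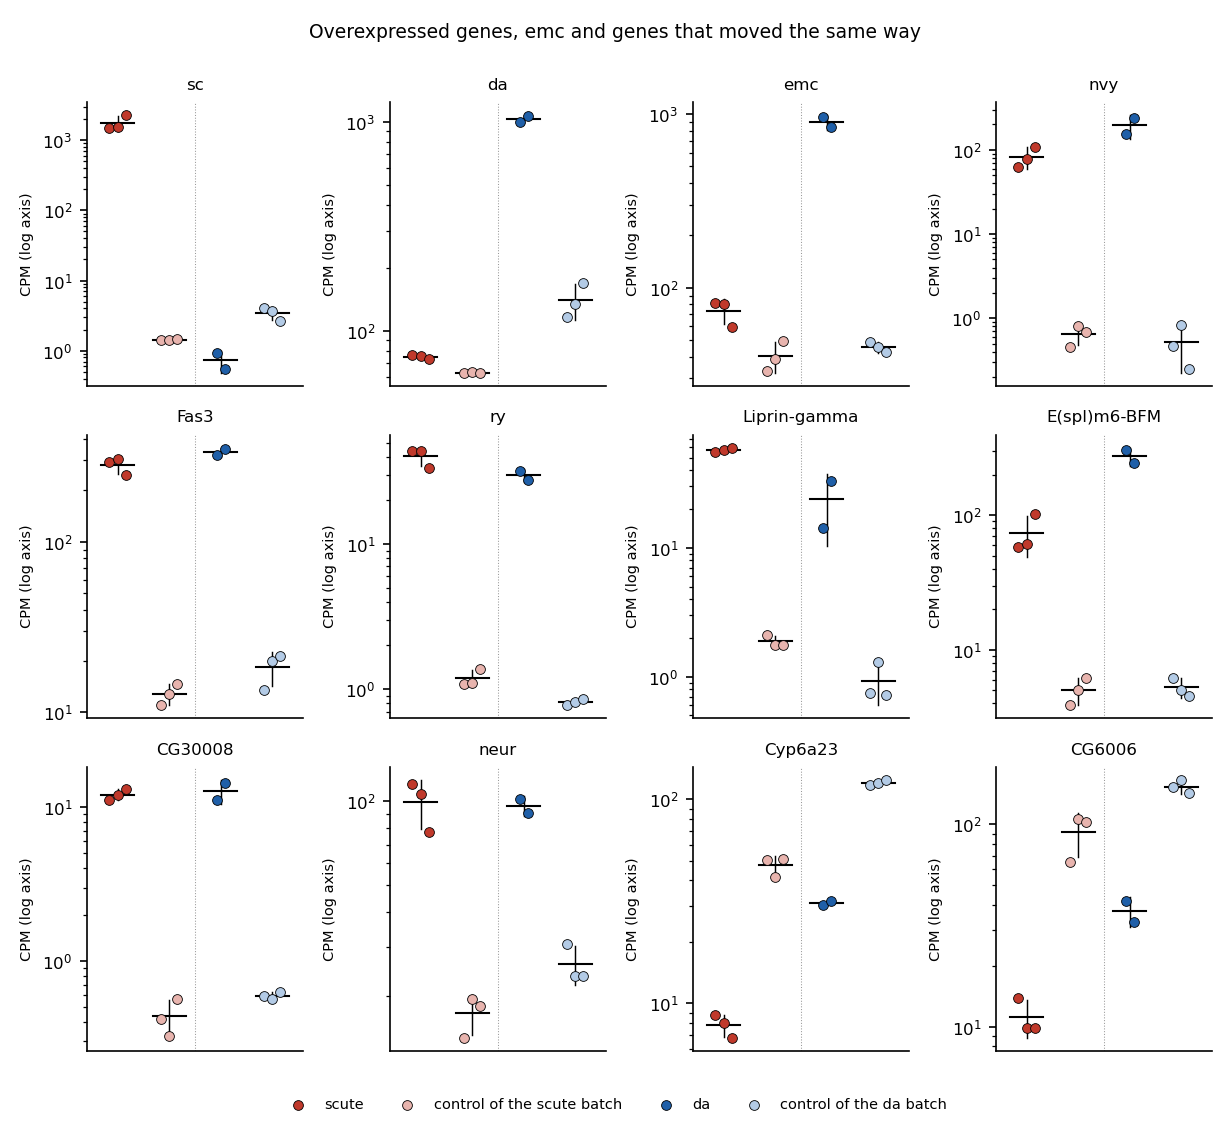
Level of each gene in CPM on a log axis in scute libraries, their controls, da libraries and their controls, from left to right. Points are libraries, bars the mean and vertical lines 1 SD, and the dotted line parts the 2 batches. Fas3, ry and CG30008 reached like levels with scute and with da, emc was highest in da libraries, and Cyp6a23 and CG6006 were lower than control in both.

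Genes of proneural signalling and of asymmetric division rose together in part. In the list of proneural commitment genes, 12 of 14 tested members rose with scute and 7 rose with da, against background shares of 29.2% and 15.6%; 7 rose in both and 3 rose with scute and fell with da. Neuralized (neur), the ubiquitin ligase that activates Delta, had 115, 106 and 77.5 CPM in scute libraries, against 14.2, 19.5 and 18.5 CPM in their controls, and 102 and 90.7 CPM in da libraries, against 30.9, 23.6 and 23.7 CPM in their controls. It was higher in every overexpression library, 5.73-fold with scute and 3.70-fold with da, and its difference of 0.63 was not called (adjusted p = 0.0858). Because counting ignored strand and neur shares 38.8% of its exon bases with a gene on the other strand, its reads may include that gene's.

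Miranda (mira), the adaptor that carries cell fate proteins into 1 daughter of an asymmetric division, rose by 0.94 with scute and 1.63 with da. Inscuteable (insc), which orients such divisions, rose by 0.68 and 0.64, with a difference of 0.04 (adjusted p = 0.888). The ubiquitin ligase gene sina rose by 0.83 and 0.63, and edl, whose product modulates ETS factors of the EGFR pathway, by 1.27 and 1.83. Sanpodo (spdo), a regulator of Notch in dividing precursors, rose 17.4-fold with scute and 2.35-fold with da, and that difference was called (adjusted p = 7.89e-05). Worniu (wor), a Snail-family factor of neural precursors, also rose more with scute, by 4.62 against 1.36, although the da call was lost without the first da library (adjusted p = 0.119).

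Of 18 tested EGFR genes 6 rose and 4 fell with scute, and 4 rose and 2 fell with da. Over all genes these shares were 29.2% and 28.5%, and 15.6% and 19.2%. In the EGFR list 3 of 18 members rose in both changes, beside 7.45% of all genes, and all 3 act in making the ligand signal. They are rho, the protease that releases EGFR ligands, its relative ru, and the ligand Krn. Their scute changes were 1.39, 2.26 and 0.71, beside da changes of 1.61, 2.55 and 0.64, and none of the 3 had a called difference (adjusted p of 0.425 to 0.801). Krn shares 21.3% of its exon bases with a gene on the same strand. The ligand gene vn fell in both, by 3.18 on the log2 scale with scute and 1.12 with da (adjusted p of the difference = 0.000233). The feedback inhibitors aos and sty fell with scute and were not called with da. Over the list the medians were -0.06 with scute and 0.12 with da.

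The Enhancer of split complex, a row of bHLH repressor genes and Bearded-family genes that answer to Notch, split by gene. Its 11 tested members lie side by side on chromosome 3R between 25997621 and 26041008. With scute 8 rose and 3 fell, with da 9 rose and 2 were not called, and 7 rose in both. Over all genes 29.2% rose and 28.5% fell with scute, 15.6% rose with da and 7.45% rose in both. The medians were 3.89 with scute and 1.07 with da. The difference was called higher in 5 and lower in 4, with a median of 0.09 that became -0.01 under another scaling (relative log expression).

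E(spl)m8-HLH had 296, 278 and 299 CPM in scute libraries, against 1.68, 2.08 and 2.78 CPM in their controls, and 27.9 and 19.8 CPM in da libraries, against 5.78, 5.71 and 3.38 CPM in their controls. Both groups were clear of their controls, with a 133-fold rise with scute and a 4.80-fold rise with da (adjusted p of the difference = 7.12e-08). E(spl)m6-BFM, a Bearded-family gene, rose more with da. It had 57.6, 61.5 and 103 CPM in scute libraries, against 3.85, 4.99 and 6.12 CPM in their controls, and 305 and 244 CPM in da libraries, against 6.2, 5.01 and 4.51 CPM in their controls. Its rises were 14.8-fold with scute and 52.3-fold with da (adjusted p of the difference = 0.0133). E(spl)m7-HLH rose by 5.36 and 2.81, and E(spl)m5-HLH by 1.75 and 3.16.

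E(spl)mbeta-HLH moved in opposite directions. It had 168, 135 and 117 CPM in scute libraries, against 487, 477 and 517 CPM in their controls, and 1490 and 941 CPM in da libraries, against 565, 516 and 767 CPM in their controls. Scute libraries were all lower than their controls and da libraries all higher than theirs, and the difference was -2.80 ± 0.27 (adjusted p = 1.39e-06). E(spl)m3-HLH fell by 1.70 with scute and rose by 0.69 with da, and E(spl)malpha-BFM fell by 1.75 with scute. These 3 were the members with the highest control levels, 290 to 1030 CPM per kb of exon in batch 2 and 210 to 880 in batch 1, against at most 6.51 and 19.2 CPM per kb for the other 8. Of the 9 rises with da, 5 held whichever library was left out (E(spl)mbeta-HLH, m5-HLH, m6-BFM, m7-HLH and m8-HLH). Without the second da library the rises of E(spl)mdelta-HLH, E(spl)m3-HLH and E(spl)m2-BFM were no longer called (adjusted p = 0.454, 0.13 and 0.424), and without the first that of E(spl)mgamma-HLH was not (adjusted p = 0.308).

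**Figure D3:**
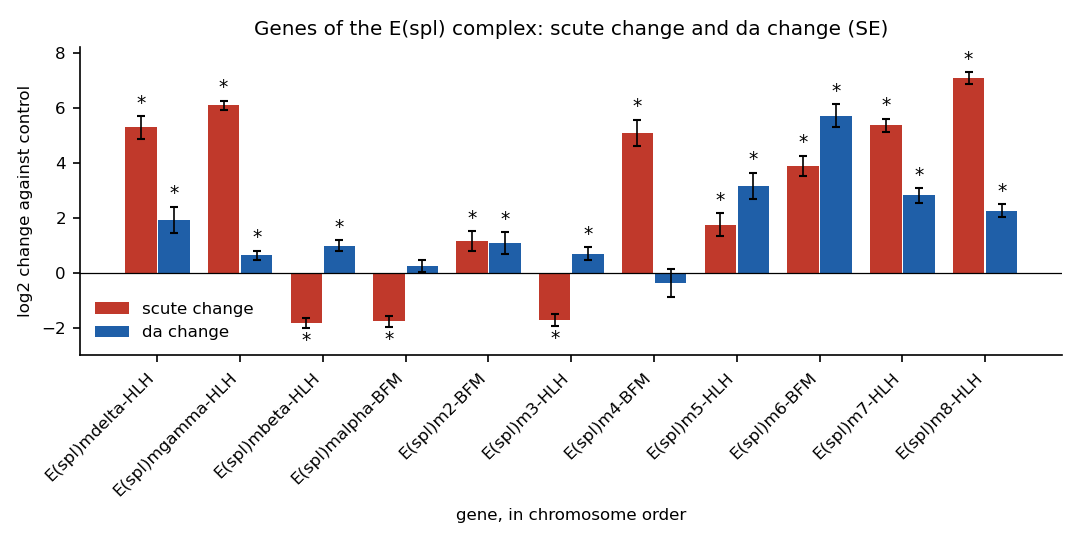
Log2 change of the 11 tested genes of the E(spl) complex, in chromosome order, with scute (left bar of each pair) and with da (right bar), error bars giving the SE and asterisks an adjusted p under 0.05. E(spl)mbeta-HLH, E(spl)malpha-BFM and E(spl)m3-HLH fell with scute, and E(spl)m6-BFM and E(spl)m5-HLH are the 2 with a da change above 3.

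The list of Notch signalling and asymmetric division genes moved both ways, with more rises than falls in each change. Neither of its 2 da falls and not all of its 7 da rises held in every fit that left out 1 library. Of 21 tested, 11 rose and 5 fell with scute, 7 rose and 2 fell with da, and 6 rose in both. Over all genes 29.2% rose and 28.5% fell with scute, 15.6% rose and 19.2% fell with da, and 7.45% rose in both. The ligand Delta (Dl) rose with scute, at 151, 141 and 132 CPM against 22.2, 31.7 and 25.9 CPM in the controls. In da libraries it stood at 186 and 54.5 CPM, against 195, 170 and 76.0 CPM in their controls. The da libraries and their controls overlapped, the da change of -0.29 was not called (adjusted p = 0.631), and the difference was 2.70 ± 0.56 (adjusted p = 0.00158). Without the first da library the da change of Dl was -1.44 and was called (adjusted p = 0.024). Delta stood higher in the controls of the da batch than in those of the scute batch. Fringe (fng), a glycosyltransferase that modifies Notch, fell by 1.55 with scute and rose by 1.03 with da, a rise lost without the first da library (adjusted p = 0.0705).

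Of the 16 progenitor genes, 5 rose and 5 fell with scute, 5 rose and 2 fell with da, and 2 rose in both (mira and hdc). Over all genes tested 29.2% rose and 28.5% fell with scute and 15.6% rose and 19.2% fell with da, so the scute counts are near the background. The da rise of hdc was lost without the first da library (adjusted p = 0.236), and its scute rise without the first scute library (adjusted p = 0.0509) or the first control of that batch (adjusted p = 0.0502). The driver's own gene esg had 490, 438 and 312 CPM in scute libraries, against 527, 555 and 508 CPM in their controls, and 885 and 765 CPM in da libraries, against 689, 682 and 939 CPM in their controls. All scute libraries lay below their controls, while da libraries overlapped theirs. The scute change of -0.36 was not called (adjusted p = 0.0548) but was called in 12 alternatives, among them relative log expression scaling (adjusted p = 0.0308), DESeq2 (adjusted p = 0.0183) and separate fits (adjusted p = 0.0465), and without the first scute library it was -0.54 (adjusted p = 0.0102). The da change of 0.10 was not called, and the difference of -0.46 (adjusted p = 0.12) was called by DESeq2 (adjusted p = 0.0389) and without the first scute library (adjusted p = 0.0285) or control library 3 of the da batch (adjusted p = 0.0281). Sox100B, a SOX factor of stem cells, fell by 2.01 with scute and was not called with da, with a difference of -2.33 ± 0.28 (adjusted p = 1.02e-05). Egfr rose by 1.00 with da alone, a call that was lost without the first da library (adjusted p = 0.0864).

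Of the 10 shared falls named by their smaller change, 3 are cytochrome P450 genes and 6 carry no name beyond a number. Cyp6a23, a cytochrome P450, had 8.72, 7.98 and 6.77 CPM in scute libraries, against 50.5, 41.4 and 50.9 CPM in their controls, and 30.2 and 31.8 CPM in da libraries, against 118, 120 and 124 CPM in their controls. The libraries of each group lay close together and below their controls, 6.08-fold with scute and 3.89-fold with da. The further P450 genes Cyp6a14 and Cyp9b1 fell by 3.31 and 2.06 with scute and by 1.94 and 3.30 with da. Eip55E, which encodes a cystathionine gamma-lyase, fell 3.47-fold with scute and 5.18-fold with da.

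CG6006 had 13.9, 9.82 and 9.81 CPM in scute libraries, against 65.4, 106 and 103 CPM in their controls, and 41.7 and 32.9 CPM in da libraries, against 152, 165 and 142 CPM in their controls. It was lower in all 5 overexpression libraries, as the rule that picked these 10 genes required, and more so with scute (adjusted p of the difference = 0.00702). The other 5 of the 10 named shared falls were CG3348, CG13658, CG9021, CG16898 and CG4267, with scute changes of -4.11 to -2.25 and da changes of -3.12 to -1.96. Of the 10, 5 had a called difference, and the scute fall was the deeper in 4 of these. Cyp9b1 fell deeper with da, a difference no longer called without the second da library, the third control of that batch (adjusted p = 0.0517) or the third scute library (adjusted p = 0.0643). These counts depend on the fit. The difference of CG16898, deeper with da, was called without control library 1 of the scute batch (adjusted p = 0.0355). Without control library 3 of the da batch, the differences of Eip55E, deeper with da, and CG13658, deeper with scute, were called (adjusted p = 0.0429 and 0.0314).

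Genes of enteroendocrine cells rose with scute, and some of them fell with da. Sorted cells were measured in bulk, so more cells of a type and more RNA per cell cannot be told apart here. Of 10 enteroendocrine regulators 9 rose with scute and 4 fell with da, all 4 of them among the 9, and the medians were 2.89 and -1.06. Over all genes 29.2% rose with scute, 19.2% fell with da, and 4.41% did both. Prospero (pros), the homeodomain factor that marks these cells, had 411, 433 and 565 CPM in scute libraries, against 30.8, 36.3 and 30.4 CPM in their controls. It had 2.46 and 3.87 CPM in da libraries, against 17.7, 13.1 and 6.66 CPM in their controls. Neither pair of groups overlapped, and the difference of changes was 5.82 ± 0.42 (adjusted p = 1.36e-07).

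Phyllopod (phyl), the adaptor through which the repressor Tramtrack is degraded, stood at 131, 127 and 117 CPM in scute libraries, against 2.90, 2.22 and 1.92 CPM in their controls, and at 0.535 and 0.345 CPM in da libraries, against 4.15, 4.08 and 1.99 CPM in their controls. It was 53.3-fold higher with scute and 7.92-fold lower with da (adjusted p of the difference = 9.36e-10). Dimmed (dimm), a bHLH factor of peptidergic cells, rose by 2.86 and fell by 2.12. The zinc-finger gene nerfin-1 rose by 5.83 with scute and fell by 2.59 with da, a fall not called without the second da library (adjusted p = 0.058).

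Asense (ase), the achaete-scute family member that follows proneural genes, stood at 81.4, 75.3 and 50.6 CPM in scute libraries, against 1.08, 0.963 and 0.866 CPM in their controls. In da libraries it had 1 count in all, against 66 in their 3 controls, a ratio of 43.0-fold lower with a 95% counting interval of 7.45 to 1720. The bHLH repressor gene Hey likewise had 2 counts in da libraries, against 95 in their controls, 30.9-fold lower with an interval of 8.33 to 259, and stood at 9.29, 11.4 and 27.2 CPM in scute libraries, against 0.277, 0.499 and 0.55 CPM in their controls. These intervals cover counting error only. The bHLH gene Fer1 rose by 6.81 with scute and fell by 3.66 with da, and that fall was lost without the second da library (adjusted p = 0.0846). Deadpan (dpn) rose by 5.42 and fell by 1.71, with 59.3% of its exon bases shared with a gene on the other strand.

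The gut hormones showed the same pattern in part. Of 12 tested, 8 rose with scute and 6 fell with da, and 5 did both, beside 29.2%, 19.2% and 4.41% of all genes. Allatostatin A (AstA) had 410, 601 and 902 CPM in scute libraries, against 7.37, 3.85 and 14.1 CPM in their controls, and 1.28 and 0.769 CPM in da libraries, against 49.6, 22.3 and 9.50 CPM in their controls. All scute libraries exceeded, and all da libraries fell below, every control of their batch (difference 10.99 ± 1.05, adjusted p = 3.87e-06). CCHa1 had 661, 736 and 915 CPM in scute libraries, against 4.02, 7.62 and 16.6 CPM in their controls, and 3.17 and 0.849 CPM in da libraries, against 47.3, 55.5 and 23.5 CPM in their controls (difference 10.79 ± 0.83, adjusted p = 8.55e-07). Npc2b, a sterol-binding protein gene directly next to CCHa1 on chromosome 3R (14089517 to 14092425, with CCHa1 at 14092504 to 14096835), moved like it, by 6.10 and -4.26.

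Other hormones gave other values. Mip fell with both, to 0.57 CPM in scute libraries, against 26 CPM in their controls, and to 0 counts in da libraries, against 0.429 CPM in theirs. NPF, neuropeptide F, had 1440, 1420 and 1810 CPM in scute libraries, against 2980, 3150 and 3090 CPM in their controls. Its da libraries stood apart from each other, at 44.8 and 410 CPM, against 44.8, 48.9 and 128 CPM in their controls. Neither NPF change was called. The scute change of -0.98 was called with each batch fitted alone (adjusted p = 0.00138), and the da change of 1.62 without the first da library (2.47, adjusted p = 0.0108) or control library 3 of that batch (2.28, adjusted p = 0.0372). The called difference of -2.61 (adjusted p = 0.0414) was lost in 8 of the fits that left out 1 library, with adjusted p-values of 0.0615 to 0.793, the highest without the second da library. Tachykinin (Tk) had a scute change of 0.91 (adjusted p = 0.157) and a da change of -0.32 (adjusted p = 0.715), neither called. Its da libraries stood apart, at 2.46 and 23.7 CPM, against 13.5, 20.9 and 15.2 CPM in their controls. Without the second da library the da change of Tk was -2.74 (adjusted p = 0.00679), its difference 3.58 in place of 1.23 (adjusted p = 0.00134) and its scute rise was called (adjusted p = 0.046), as it was without the first da library (adjusted p = 0.0359) and with each batch fitted alone (adjusted p = 0.00178). Dh31 and AstC were called opposite. The scute rise of Dh31 was lost without the third scute library (adjusted p = 0.139) or control library 1 or 2 of that batch (adjusted p = 0.0983 and 0.099). The da fall of AstC, at an adjusted p of 0.047, was lost in most fits that left out 1 library, with an adjusted p of up to 0.297 without the first da library.

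Secretion genes rose with scute, and 17 of the 22 were not called with da. Of the 22 genes for vesicle release and hormone processing, 21 rose with scute, 4 fell and 1 rose with da, and the difference was called higher in 20, with medians of 2.81, -0.50 and 3.12 beside 0.04, -0.10 and 0.05 over all genes. Over all genes 29.2% rose with scute and 19.2% fell with da, so the 4 da falls are near the background. Synaptotagmin 4 (Syt4), a vesicle protein, moved in opposite directions. It had 20, 26.8 and 36.6 CPM in scute libraries, against 1.93, 2.03 and 1.62 CPM in their controls, and 0.0356 and 0.0796 CPM in da libraries, against 11.9, 9.20 and 10.6 CPM in their controls. The rise was 14.9-fold with scute and the fall 168-fold with da (adjusted p of the difference = 8.13e-10). 7B2, a cofactor of the prohormone convertase, rose by 2.85 with scute and had a da change of -1.05 that was not called (adjusted p = 0.114). Without the second da library that change was -2.17 and was called (adjusted p = 0.0222). Of the 4 da falls in the list, Syt4 is the one that held whichever library was left out.

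Ion channels were divided between shared and opposite responses. Of 16 channel and pump genes, 12 rose with scute and 5 with da, 4 rose in both, and 3 rose with scute and fell with da. Over all genes these shares were 29.2%, 15.6%, 7.45% and 4.41%. Without the second da library the da changes of the calcium channel genes stj and Ca-alpha1T were 1.34 and 1.31, in place of 1.79 and 1.7. Neither of these da rises held in every fit that left out 1 library. The calcium channel gene cac rose by 3.30 with scute and 5.41 with da, the difference of -2.11 being called (adjusted p = 0.0232). Atpalpha, the sodium pump's catalytic subunit, rose by 0.74 and 0.60 (difference 0.14, adjusted p = 0.551). Of the opposite ones, Shal had a da fall that held in every fit that left out 1 library but a scute rise that was lost without the third scute library (adjusted p = 0.0743), while the da falls of Shab and Ca-alpha1D were lost without the second da library (adjusted p = 0.085) and the first (adjusted p = 0.0745). The sodium pump subunit gene nrv3 rose by 4.31 with scute and was not called with da.

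**Figure D4:**
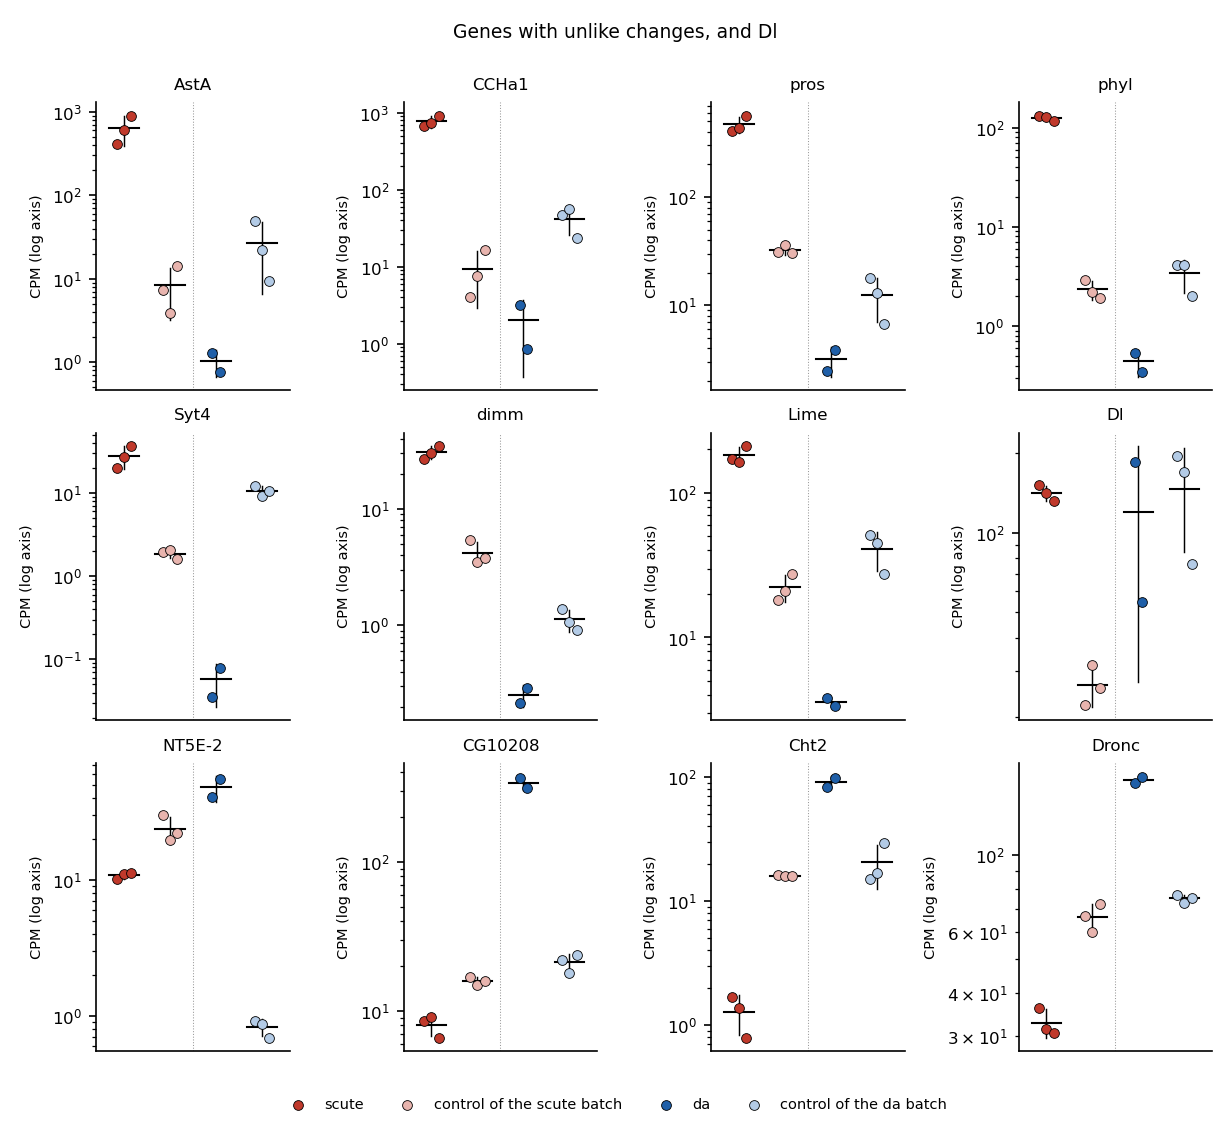
Level of each gene in CPM on a log axis in scute libraries, their controls, da libraries and their controls, from left to right, with points for libraries, bars for the mean and lines for 1 SD. In the top row and for Syt4, dimm and Lime the scute libraries lie above and the da libraries below their controls, in the bottom row the reverse holds, and Dl differs from its control with scute only.

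The reverse pattern, lower with scute and higher with da, held for 225 genes. NT5E-2, of the 5'-nucleotidase family, had 10.1, 11.1 and 11.2 CPM in scute libraries, against 29.8, 19.6 and 22 CPM in their controls. Da libraries had 40.6 and 55.0 CPM, against 0.919, 0.872 and 0.694 CPM in their controls, and the difference was -6.98 ± 0.25 (adjusted p = 9.23e-11). The controls of the 2 batches differed here, those of the scute batch holding far more NT5E-2. CG10208 had 8.57, 9.09 and 6.62 CPM in scute libraries, against 16.8, 15.0 and 16 CPM in their controls, and 366 and 314 CPM in da libraries, against 21.9, 18.1 and 23.6 CPM in their controls, 1.97-fold lower with scute and 16-fold higher with da.

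Cht2, a chitinase gene, fell by 3.65 with scute and rose by 2.15 with da. The pyrimidine catabolism gene pyd3 fell by 2.12 and rose by 3.82, and Reg-5 fell by 4.28 and rose by 1.63. Of 11 genes of cell death and stress, 3 belonged here, beside 2.37% of all genes. The initiator caspase gene Dronc had 36.3, 31.5 and 30.6 CPM in scute libraries, against 66.7, 60.2 and 72.4 CPM in their controls, and 162 and 168 CPM in da libraries, against 76.7, 73.0 and 75.5 CPM in their controls. It was 2.03-fold lower with scute and 2.19-fold higher with da (adjusted p of the difference = 3.53e-07). Mmp1, a matrix metalloprotease, fell by 0.63 and rose by 0.97. Ets21C, a stress-induced ETS factor, fell by 2.92 with scute and rose by 0.88 with da, the rise lost without the first da library (adjusted p = 0.43) and without control library 2 or 3 of that batch (adjusted p = 0.0715 and 0.0938). Ets21C shares 28.3% of its exon bases with a gene on the other strand. The death gene rpr rose in both, by 5.44 and 2.21, the da rise not being called without the second da library (adjusted p = 0.0562).

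Responses of 1 factor were counted where 1 change was called, the other was not, and the difference was called. There were 2012 such genes for scute and 736 for da. The remaining genes called in 1 change only, 1269 with scute and 372 with da, had no called difference. Among the largest of da's, SWIP, a subunit gene of the WASH complex, had 174 and 158 CPM in da libraries, against 9.72, 10.4 and 10.3 CPM in their controls, and 15.3, 14.6 and 14.1 CPM in scute libraries, against 13.3, 15.2 and 14.8 CPM in their controls. Scute libraries overlapped their controls, da libraries did not, as the rule that picked the gene required, and the difference was -4.02 ± 0.15 (adjusted p = 1.46e-10). CG6912 was the reverse, falling 92.2-fold with da to 0.606 and 0.477 CPM, against 38.2, 50.8 and 59.6 CPM in the controls, with 64.1, 55.0 and 40.7 CPM in scute libraries, against 57.4, 57.7 and 60.1 CPM in theirs.

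Scute's own responses included the lysosomal thiol reductase genes GILT2 and GILT1, which went in opposite directions. GILT2 rose by 4.58 with scute, and GILT1 fell by 3.42, while their da changes of -0.27 and 0.37 were not called. The tetraspanin gene Tsp42Eq rose by 4.55 and the Rab GTPase gene RabX1 fell by 3.36, again without a called da change. In each of these 4 the difference was called, at an adjusted p of at most 1.16e-06.

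Cell cycle genes rose with scute. Of 40 mitosis genes 34 rose with scute, 2 rose and 13 fell with da, and the difference was called higher in 31; the medians were 1.33, -0.49 and 1.82. Of 20 DNA replication genes 14 rose with scute, 6 fell with da, and the difference was higher in 17, with medians of 1.35, -0.61 and 2.03. Cyclin B3 (CycB3) had 27.0, 26.9 and 27.4 CPM in scute libraries, against 3.31, 3.85 and 4.50 CPM in their controls, and 4.63 and 3.34 CPM in da libraries, against 6.73, 6.22 and 3.79 CPM in their controls. The scute libraries stood clear of their controls and the da libraries overlapped theirs. Cyclin E (CycE) rose by 3.88 with scute, and the mitotic phosphatase gene stg by 1.82, with neither called in the da change. The shares over all genes were 29.2% rises with scute and 19.2% falls with da. Of the 34 mitosis rises with scute, 31 held in every fit that left out 1 library. Each of the 13 mitosis falls and 6 replication falls with da was lost in at least 1 such fit. With each batch fitted alone by edgeR, 0 mitosis genes rose or fell with da at the adjusted threshold, with 2 rises and 8 falls at an unadjusted p under 0.05, and 2 replication genes fell.

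Ribosomal protein genes differed sharply between the factors. Of 86 tested, 82 fell with scute and 2 with da, and the difference was called lower in 80, with medians of -0.91, 0.04 and -0.90. Over all genes 28.5% fell with scute and 19.2% with da, and 20.6% had a lower difference. Summed over the 92 listed, they took 108000 to 147000 CPM in scute libraries, against 229000 to 251000 CPM in their controls, and 321000 to 433000 CPM in da libraries, against 344000 to 431000 CPM in their controls. Of the 80 called differences, 47 held in every fit that left out 1 library. CPM are shares of a library, so a fall of such an abundant class moves other shares, and with libraries scaled without ribosomal and mitochondrial genes the medians of all genes were 0.02, -0.08 and 0.03.

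Of 64 nuclear genes of oxidative phosphorylation 44 fell with scute and 22 with da, beside 28.5% and 19.2% of all genes, and 17 fell in both, beside 8.89% of all genes. The da change was not called in 42, and the difference was called in 13. The medians were -0.47 and -0.31, and 5 of the 22 da falls held in every fit that left out 1 library. With each batch fitted alone 9 fell with da. Of the 13 genes of the mitochondrial genome 11 fell with scute and the difference was called lower in 6, with medians of -0.66 with scute and 0.03 with da. Among 23 V-ATPase genes, 10 fell and 3 rose with scute, and 8 fell and 3 rose with da. Over all genes 28.5% fell and 29.2% rose with scute, and 19.2% fell and 15.6% rose with da. In both changes 7 fell and 1 rose, beside 8.89% and 7.45% of all genes. Most of the 8 da falls did not hold in every fit that left out 1 library. Among the 7, Vha68-2, the catalytic subunit gene, fell by 1.80 with scute and 0.60 with da.

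**Figure D5:**
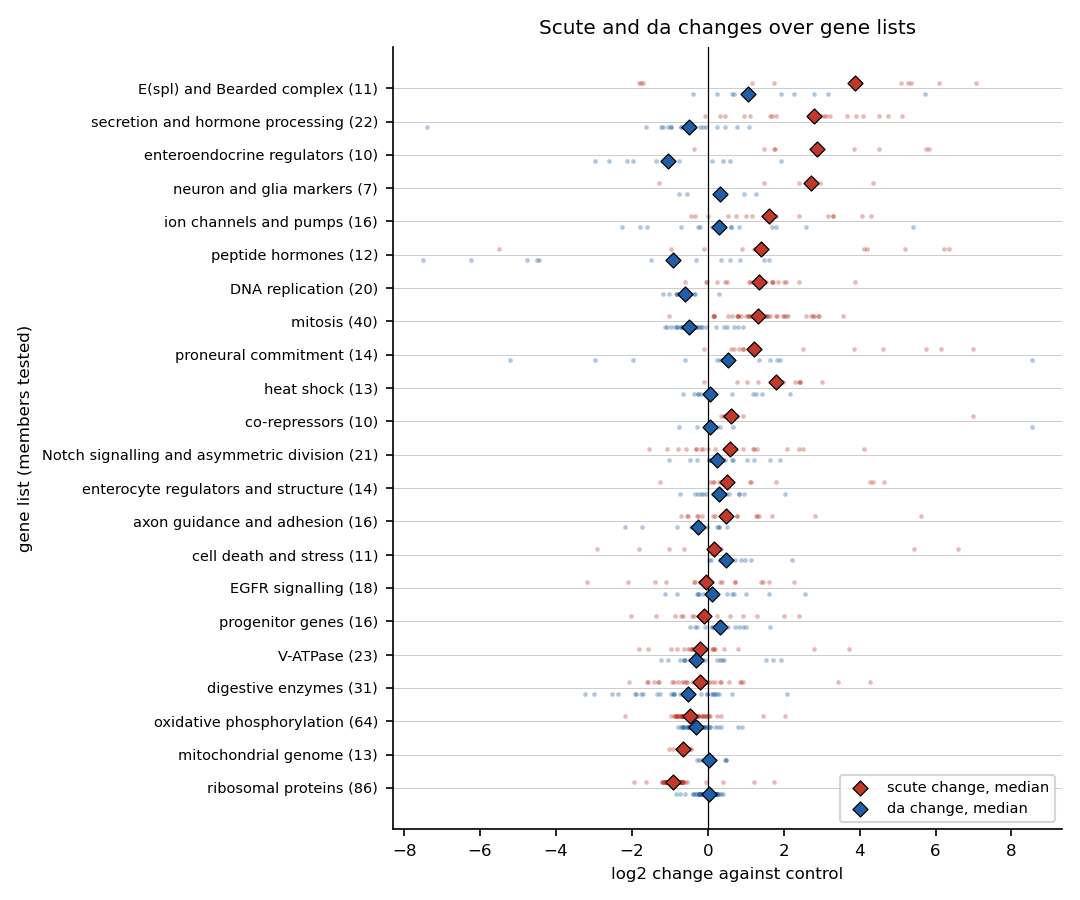
Log2 changes with scute (upper, diamond and points) and with da (lower) of the tested members of 22 gene lists, small points being genes and diamonds the median. Secretion, enteroendocrine, replication and mitosis genes have medians above 0 with scute and below 0 with da, while ribosomal protein genes are low with scute and near 0 with da.

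Structural genes of absorptive enterocytes rose with both in part. Of 14 genes, 7 rose with scute and 4 with da, all 4 of them among the 7. Another member, 1 of the 14, fell in both, and its da fall did not hold in every fit that left out 1 library. Over all genes 29.2% rose with scute, 15.6% with da and 7.45% in both, and 8.89% fell in both. Tsp2A, a smooth septate junction protein, had 282, 321 and 358 CPM in scute libraries, against 6.43, 13.3 and 18.5 CPM in their controls, and 229 and 356 CPM in da libraries, against 61.0, 77.8 and 74.8 CPM in their controls. It was higher in every overexpression library, and more so with scute (difference 2.61 ± 0.41, adjusted p = 0.000144). Its junction partners mesh and Ssk rose by 4.36 and 4.28 with scute, with da changes of 0.82 and 0.81 that were not called. The brush border myosin gene Myo61F rose by 1.79 and 0.95, and the septate junction gene Nrx-IV by 1.15 and 0.57. Digestive enzymes did not follow, with 2 of 31 higher and 4 lower with scute and 1 higher and 5 lower with da. Falls over all genes were 28.5% with scute and 19.2% with da, so all 4 counts lay below the shares over all genes.

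All 10 co-repressor genes rose with scute and 2 with da (nvy and H), and the da rise of H was lost without the second da library (adjusted p = 0.112). Over all genes 29.2% rose with scute and 15.6% with da. Of the 10 scute rises 7 held in every fit that left out 1 library, and those of CtBP, Sin3A and HDAC4 were lost without the first scute library (adjusted p = 0.051, 0.0849 and 0.0665). Without control library 1 of that batch Sin3A and HDAC4 were not called either (adjusted p = 0.0644 and 0.0586), nor was HDAC4 without control library 3 (adjusted p = 0.0777) or the second scute library (adjusted p = 0.0699). HDAC1, a histone deacetylase, rose by 0.62 with scute and fell by 0.76 with da (adjusted p of the difference = 5.35e-06). Of 13 heat shock genes 10 rose with scute, and 3 rose and 1 fell with da. Of the scute rises 7 held in every fit that left out 1 library. Without the third scute library the scute changes of Hsp23, Hsp68 and Hsp70Ba were 0.43, 0.48 and 0.66 in place of 1.74, 1.74 and 1.81, and none of these 3 was called (adjusted p = 0.481, 0.359 and 0.345). Leaving out control library 1 or 3 of that batch also ended these 3 calls, at adjusted p-values of 0.0501 to 0.0785. Heat shock levels were uneven between libraries, Hsp26 being at 279, 508 and 2020 CPM in scute libraries, against 180, 268 and 118 CPM in their controls, and at 3790 and 1910 CPM in da libraries, against 4370, 3240 and 2150 CPM in theirs. The called difference of Hsp26 (adjusted p = 0.0234) was lost without the third scute library (adjusted p = 0.108), the second da library (adjusted p = 0.122) or 1 control of either batch (adjusted p = 0.0525 and 0.0526). In the JAK-STAT list 4 of 9 genes fell with scute and 1 with da, beside 28.5% and 19.2% of all genes, and the cytokine genes upd2 and upd3 fell by 2.91 and 2.11 with scute and were not called with da.

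Markers of other cells differed in level, and their part in the results was not tested. Haemocyte markers summed to 116 to 130 CPM in scute libraries, against 158 to 166 CPM in their controls, and to 170 to 198 CPM in da libraries, against 204 to 271 CPM in theirs, so both overexpression groups were lower. Visceral muscle markers summed to 784 to 848 CPM in scute libraries, against 827 to 994 CPM in their controls, and to 670 to 768 CPM in da libraries, against 608 to 677 CPM in theirs. With da 4 of 8 members rose, beside 15.6% of all genes. Neuron and glia markers, some of which enteroendocrine cells also express, summed to 528 to 567 CPM in scute libraries, against 294 to 332 CPM in their controls, and to 550 to 556 CPM in da libraries, against 382 to 416 CPM in theirs. Trachea, fat body and germline markers each summed to under 30 CPM in every one of the 11 libraries. The single tested Malpighian tubule marker, the zinc transporter gene ZnT35C, rose by 5.58 with scute, and by 1.98 with da, a rise not called without the second da library (adjusted p = 0.0918).

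Several proneural genes had too few counts in batch 1 for a da change. Achaete (ac) had 13, 14 and 14 counts in scute libraries, against 14, 12 and 12 in their controls, and none in da libraries or their controls. Lethal of scute had 35, 51 and 37 counts in scute libraries, against 34, 17 and 26 in their controls, and 3 and 0 in da libraries, against 3, 2 and 0 in theirs. The proneural genes ato, cato and amos and the zinc-finger gene sens were likewise left untested.

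The authors' deposited table, which lists 9986 genes for both comparisons, gave overlaps of like size at its adjusted p under 0.05. By the authors' deposited table, a total of 798 genes rose in both comparisons, 775 fell in both, 357 rose with scute and fell with da, and 319 fell with scute and rose with da. Of the 690 shared rises above that are in the authors' deposited table, 657 are shared rises there too, and of 836 shared falls 728 are. Of the 413 genes higher with scute and lower with da that are in the authors' deposited table, 338 have the same calls there, as do all 221 of the reverse kind.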

How the data were processed

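RNA-seq of sorted esg+ cells was deposited as counts per gene for each library. Per the file headers, the authors made these counts with featureCounts 2.0.2 on exons of genome BDGP6.28, annotation release 101, with no strand option, and in batch 2 the mates of a pair were counted singly. The aligner is not given in the sources used here. The authors also deposited a table of log2 fold changes and adjusted p-values per comparison, which is quoted only where named, and 17 further columns of per-sample values were not used because their names match no single sample. Total counts were 33889877 to 40868714 in batch 1 and 47136298 to 66679229 in batch 2.

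Genes were kept if edgeR's expression filter passed them within batch 1 and within batch 2. Counts were scaled by TMM and fitted in 1 quasi-likelihood model of all 17 libraries with 6 group means (edgeR 4.0.16, limma 3.58.1, R 4.3.3), so that all groups share 1 estimate of the spread. The scute change, the da change and their difference were contrasts of that fit, with Benjamini-Hochberg adjustment over 9494 genes and Wald standard errors. The workflow was tested on simulated data. Counting intervals are exact at 95% and cover counting error only. Symbols came from the authors' table for 9986 genes and from a later annotation for 7762.

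Named genes are 30 fixed ones, the 10 shared rises and falls with the largest smaller change, the 8 opposite genes each way and 8 further genes each way with the largest difference, and up to 4 per gene list. Those picked by size averaged 10 CPM or more in at least 1 group of each batch. In their called changes the groups did not overlap with their controls, which was a condition of the choice. The genes insc, sina, edl, rho, ru, Krn, hdc, Mip, cac, Atpalpha, rpr, Myo61F, Nrx-IV, H and the further E(spl) members are list members named after their values were seen. The members and the lists were chosen with earlier results of these data known. The labels number the replicates but do not tie libraries across groups, and deviations of same-numbered libraries did not correlate above 0.1, so no block was used. Alternatives were DESeq2 1.42.0, other scalings and filters, limma-voom, separate fits and leaving out each library. Scaling without ribosomal and mitochondrial genes was chosen after seeing the data. Promoter sequences were not used here.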

Additional observations from a re-analysis of the deposited data

How the results depend on the processing

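The 411 called changes of 179 named genes were recomputed under 22 alternative settings, giving 8784 values, with 264 of the 411 under separate fits and 311 under the stricter filter. All 8784 kept their direction, and 279 were no longer past the threshold. Leaving out 1 library gave 1592 to 1993 higher and 1724 to 2137 lower differences, 2360 to 2891 rises and 2471 to 2985 falls with scute, and 1138 to 1685 rises and 1176 to 1827 falls with da. It gave 511 to 712 shared rises, 551 to 819 shared falls, 264 to 469 genes higher with scute and lower with da, and 179 to 268 of the reverse. A stricter filter on low values gave 1009 da falls, 539 shared falls and 338 responses of da alone. With that filter 219 genes were higher with scute and lower with da, and 221 were the reverse. Separate fits per batch gave 892 da falls, 489 shared falls, 189 genes higher with scute and lower with da and 223 of the reverse. A filter over all 17 libraries gave 279 and 230 of these opposite genes. In separate fits 574 of the 707 shared rises and 469 of the 844 shared falls kept their class. So did 183 of the 419 genes higher with scute and lower with da, and 196 of the 225 reverse ones. Fewer of each class kept it in every fit that left out 1 library. Same-numbered libraries did not deviate together (correlations of -0.239 to -0.0892), and with a replicate block there were 2068 higher and 1979 lower differences, 794 shared rises, 928 shared falls, and 466 and 243 opposite genes. The block called the esg difference (adjusted p = 0.0479), the esg scute fall (adjusted p = 0.0398) and the 7B2 da fall (adjusted p = 0.0187).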

Other observations

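A further 4696 genes had enough counts in the scute batch only, so no da change was measured for them. Their scute changes and CPM come from a separate fit of the batch 2 libraries alone. Scaling and adjustment in that fit were over the 14190 genes that passed the filter in batch 2. Of the 4696 genes, 654 rose with scute and 147 fell, and 55 of those that rose averaged 10 CPM or more. G6P, the glucose-6-phosphatase gene, averaged 14.7 CPM in scute libraries and 0.573 CPM in their controls. The tweety chloride channel gene tty averaged 31.8 CPM in scute libraries and 1.77 CPM in their controls, and kek2, of the kekkon family, 28 CPM and 1.57 CPM. CG1979 averaged 27.5 CPM in scute libraries and 0.422 CPM in their controls, a change of 6.02.

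Levels of shared rises in the remaining groups of the series are given as values. Tethered da:da libraries share the scute batch and da knock-down libraries share the da batch, so neither is independent of the changes above. The nvy gene averaged 51.2 ± 6.13 CPM with da:da and 0.0746 ± 0.0632 CPM with da knock-down (SD, n = 3 each). Fas3 averaged 260 ± 58.5 CPM with da:da and 57.3 ± 16.9 CPM with da knock-down, and ry 63.6 ± 14.7 CPM and 1.13 ± 0.307 CPM. The emc gene averaged 1410 ± 27.2 CPM with da:da and 15.4 ± 2.58 CPM with da knock-down. Liprin-gamma averaged 2.77 ± 0.799 CPM with da:da (SD, n = 3), beside 1.88 CPM in the controls of that batch.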
